A study of Mus musculus with 20 samples.

Results

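Plasma cells were divided by whether their B cell clone was also found among germinal centre B cells of the same sampleID. Of 1367 cells in the deposited table, 480 were annotated as plasma cells by the authors, and 475 of these had a heavy chain clone; the other 5 had none. A plasma cell was called linked when at least 1 cell of the same clone and the same sample letter was annotated as dark zone, light zone or light-to-dark zone, and unlinked when none was. This gave 127 linked plasma cells in 50 clones and 348 unlinked plasma cells in 274 clones. The cells were eYFP-positive B cells and plasma cells, sorted singly, with their fluorescence recorded, from the lymph nodes of C57BL/6 mice given NP-KLH in Sigma Adjuvant System. They were taken on day 15 of the primary response, 4 days after tamoxifen gavage, so linked and unlinked cells shared strain, antigen, adjuvant, tamoxifen and day. They came from 2 sampleIDs, C57BL/6M (75 linked and 192 unlinked cells) and C57BL/6F (52 linked and 156 unlinked cells), each spread over 10 of the 20 plates. The number of mice behind each sampleID was not given in the sources used here, nor was the Cre driver of the reporter, so sampleID, sex and animal cannot be told apart.

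Germinal centres are structures in lymphoid tissue where activated B cells divide, mutate their antibody genes in the dark zone and are selected on antigen in the light zone. Some of their progeny leave as plasma cells, which secrete antibody, while other plasma cells arise from activated B cells before or outside the germinal centre and carry few mutations. A clone is the progeny of 1 rearranged B cell and is recognised by its V and J segments and by the junction between them. In C57BL/6 mice the response to the hapten NP is known for heavy chains of the IGHV1-72 segment paired with a lambda light chain.

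Which plasma cells could be linked depended on which germinal centre cells had a clone. A clone was given for 427 of 778 germinal centre cells (54.9%) and for 475 of 480 plasma cells, so a plasma cell called unlinked may have had clonemates that were not seen. Among linked cells, 122 of 127 had a clonemate on another plate and 5 on their own plate only. Clone names occurred under both sample letters in 25 cases, and 17 unlinked cells had a name that a germinal centre cell of the other letter carried. The clone names also joined unlike junctions: 57 linked cells had a junction identical to that of a germinal centre clonemate, 28 were 1 base off, 17 were 2 bases off, 24 were 3 or more bases off, and 1 had no clonemate junction of equal length. For 14 linked cells no germinal centre clonemate had the same light chain type. A close match, with at most 2 junction bases off and the same light chain type, was found for 88 linked cells in 39 clones. Plate-level results that changed with this stricter rule are given beside the values. For genes, the number called under it is given with the gene results.

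Both classes were plasma cells by their markers. The 10 plasma cell markers summed to 24232 CPM (counts scaled to an equal total per pool) in linked and 21700 in unlinked cells, with pool ranges of 15110 to 36601 (linked) and 14880 to 32888 (unlinked), and no marker was at 0 in either class. The 7 germinal centre markers summed to 209 CPM in linked and 119 in unlinked cells (0 to 806 over linked and 22.6 to 335 over unlinked pools), with 1 of 7 at 0 in linked cells; their part in the results was not tested. The 6 T cell markers summed to 0.450 CPM in linked and 1.83 in unlinked cells, with 3 of 6 at 0 in both classes, among them Cd3e, which was not among the deposited genes. The 6 B lineage markers summed to 409 in linked and 482 in unlinked cells. The 6 myeloid markers summed to 115 and 112, of which Cd68 gave 111 and 91.1. The 5 stromal and red cell markers summed to 58.0 in linked and 30.0 in unlinked cells, nearly all from Pecam1. The median cell held 66521 counts in linked and 71766 in unlinked cells. In all, 16 plates, 9 of C57BL/6M and 7 of C57BL/6F, held at least 5 cells of each class and entered the tests, with 5 to 11 linked and 6 to 26 unlinked cells a plate. Counts per cell, as the mean over plates of the plate median, were 75513 in linked and 75782 in unlinked cells.

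The largest linked clone shows what was compared. Clone cl486 of C57BL/6M used IGHV1-22 with IGHJ4 and held 14 plasma cells on 9 plates and 14 germinal centre cells. The stretch from the first base of CDR1 to the conserved cysteine codon (positions 79 to 312 in IMGT numbering, 213 bases) is given from the authors' deposited germline and assembled heavy chains. The IGHV1-22 segment lies in the heavy chain locus at chr12:114746273-114746706 on the minus strand (mm10). Capitals mark bases that differ from the germline. The lines are the germline, the plasma cells with fewest and most mutations in the stretch (1 and 8 there, 3 and 8 over the heavy chain), and a germinal centre cell with 7, of which 5 fall in the stretch.
cl486 germline: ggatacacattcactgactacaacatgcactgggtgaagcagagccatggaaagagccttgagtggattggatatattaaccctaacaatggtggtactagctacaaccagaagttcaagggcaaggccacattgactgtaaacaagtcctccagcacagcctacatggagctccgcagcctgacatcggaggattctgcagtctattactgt
cl486 linked plasma cell, few mutations: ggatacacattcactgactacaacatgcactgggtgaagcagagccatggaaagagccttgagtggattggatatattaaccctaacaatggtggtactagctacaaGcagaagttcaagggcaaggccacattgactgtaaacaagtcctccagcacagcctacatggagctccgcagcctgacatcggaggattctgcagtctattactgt
cl486 linked plasma cell, many mutations: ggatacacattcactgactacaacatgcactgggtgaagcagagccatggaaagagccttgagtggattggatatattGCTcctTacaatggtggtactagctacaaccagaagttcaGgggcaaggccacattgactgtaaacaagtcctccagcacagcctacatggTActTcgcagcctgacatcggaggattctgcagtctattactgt
cl486 germinal centre cell: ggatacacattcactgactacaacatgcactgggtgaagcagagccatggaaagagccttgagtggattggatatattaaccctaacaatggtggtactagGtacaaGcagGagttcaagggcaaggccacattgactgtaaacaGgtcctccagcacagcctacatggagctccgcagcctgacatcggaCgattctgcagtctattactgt
The C204G change of the plasma cell with few mutations was also in the germinal centre cell shown. Counting positions in IMGT numbering from the first base of the V segment, C204G was found in 7 of the 14 plasma cells and 6 of the 14 germinal centre cells of the clone, and G197C in 8 plasma cells and 4 germinal centre cells. C204A was in 4 plasma cells and no germinal centre cell.

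Linked plasma cells carried more mutations than unlinked ones. The number of mutated heavy chain bases per cell, averaged within a plate, was 1.17 to 6.2 in linked cells with a median of 3.06, against 0.188 to 1.5 in unlinked cells with a median of 0.769. Every tested plate had the higher mean in its linked cells, although the ranges of the plates overlapped. The plate means were 3.01 ± 1.15 in linked and 0.804 ± 0.400 in unlinked cells (SD, n = 16 plates), a difference of 2.21 with a 95% interval of 1.62 to 2.82 (two-sided exact sign-flip permutation test over plates, adjusted p = 0.000295 over 29 plate-level results). Light chains differed the same way, with 1.67 ± 0.538 mutated bases in linked and 0.633 ± 0.279 in unlinked cells, a difference of 1.04 (0.717 to 1.36) that was positive in 15 of 16 plates (adjusted p = 0.000354, same permutation test). With IGHV1-22 and IGHV1-72 cells left out, the heavy chain difference was 1.42 over 7 plates (adjusted p = 0.271, exact permutation test). Its unadjusted p of 0.0156 in that test was the lowest that 7 plates allow. Not passing there thus does not show that the difference was absent. These p-values measure the spread between plates, which share clones and may share animals.

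**Figure D1:**
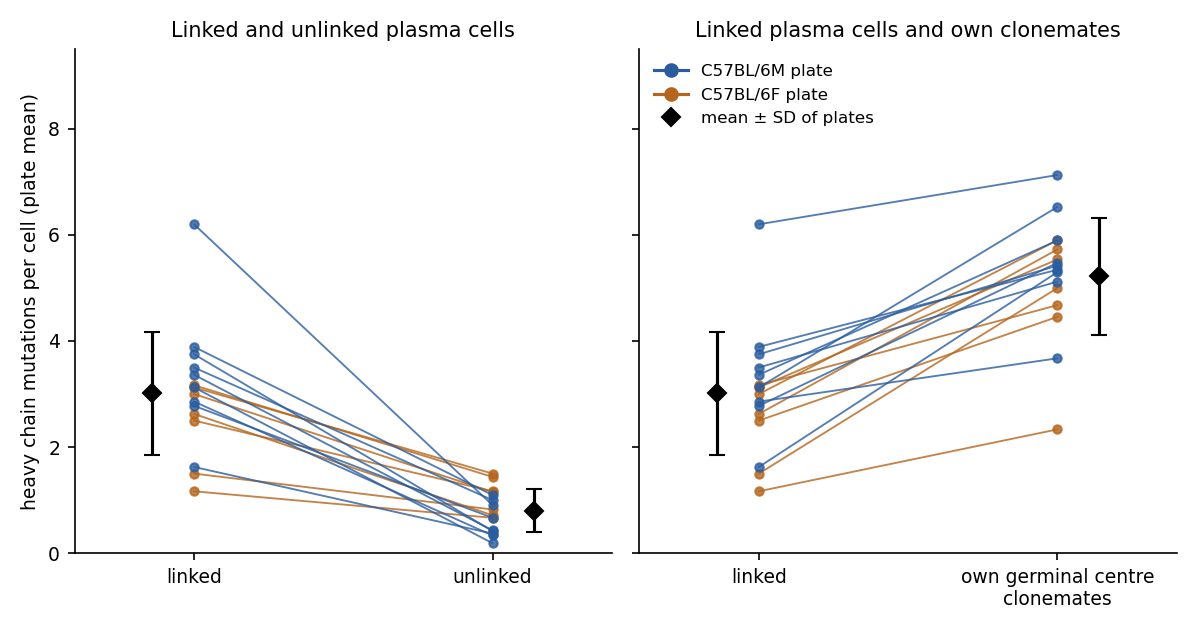
Mean heavy chain mutations per cell on each of the 16 tested plates, with linked against unlinked plasma cells on the left and linked plasma cells against their own germinal centre clonemates on the right; lines join values of 1 plate, and diamonds with bars give the mean and SD of plates. Linked cells lie above unlinked cells on all 16 plates and below their clonemates on all 16.

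The difference came with a smaller share of cells without any mutation. An unmutated heavy chain was found in 26 of 127 linked cells and in 237 of 348 unlinked cells. By plate the share was 20.5% ± 15.1 in linked and 68.5% ± 13.8 in unlinked cells, lower in linked cells on all 16 plates, with a difference of -48.0 points (-59.6 to -36.4; adjusted p = 0.000295, exact sign-flip permutation test). At the other end, 33 linked cells and 11 unlinked cells had 5 or more mutations, and the highest number was 9 in linked and 14 in unlinked cells. Of the mutations that could be classed, 82.6% in linked and 76.6% in unlinked cells replaced an amino acid (337 against 71 silent, and 216 against 66 silent).

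Within the V segment, both classes carried most mutations per base in CDR1, the first of the loops that contact antigen. Linked cells had 19.6 mutations per 1000 bases in CDR1, 13.0 in CDR2 and 10.4 in FR3, and unlinked cells had 6.41 in CDR1, 5.68 in CDR2 and 1.99 in FR3. FR1, the first framework stretch, held 2.42 in linked and 1.23 in unlinked cells. CDR1 held 60 mutations in linked and 54 in unlinked cells. Of these, 22 in linked and 14 in unlinked cells were G113T in IGHV1-72 cells, described below. The rates were not computed without that segment, so the order of regions may rest on it. These are descriptions over cells, since cells of 1 clone share mutations.

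The mutation gap was also present within switched isotypes. IgG2c cells averaged 4.59 ± 2.80 heavy chain mutations in 34 linked cells of 12 clones (SD over cells). In 65 unlinked cells of 44 clones they averaged 1.03 ± 1.83. Of the linked IgG2c cells, 13 belonged to clone cl486 of C57BL/6M, so cells are not independent observations. IgG1 cells averaged 2.70 ± 2.38 in 44 linked cells of 34 clones and 0.756 ± 1.22 in 131 unlinked cells of 109 clones. No mutation was found in 65.6% of the unlinked IgG1 cells. IgM cells were nearly unmutated in both classes, with 13 of 14 linked and 67 of 80 unlinked cells at 0. The linked IgM cells came from 5 clones and the unlinked ones from 68. IGHV11-2, described below, was the segment of 10 linked and 11 unlinked IgM cells.

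Linked plasma cells nevertheless had fewer mutations than the germinal centre cells of their own clones. Each linked cell was set against the mean of its germinal centre clonemates, so that clone name and sampleID were the same on both sides, although 39 of the 127 had no close match among them. Plate means were 3.01 ± 1.15 in linked plasma cells and 5.22 ± 1.11 in their clonemates, a difference of -2.21 (-2.71 to -1.71) that was negative on 16 of 16 plates (adjusted p = 0.000295, exact sign-flip permutation test). By cell, 100 lay below the mean of their clonemates, 14 above and 13 at it. By clone, plasma cells had the lower mean in 41 of 50 clones, the higher in 5 and the same in 4. Of 327 V mutations in linked cells, 129 (39.4%) were also seen in a germinal centre clonemate. Among 98 linked cells with a V mutation, 24 had all of theirs in a clonemate, 48 had some and 26 had none.

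**Figure D2:**
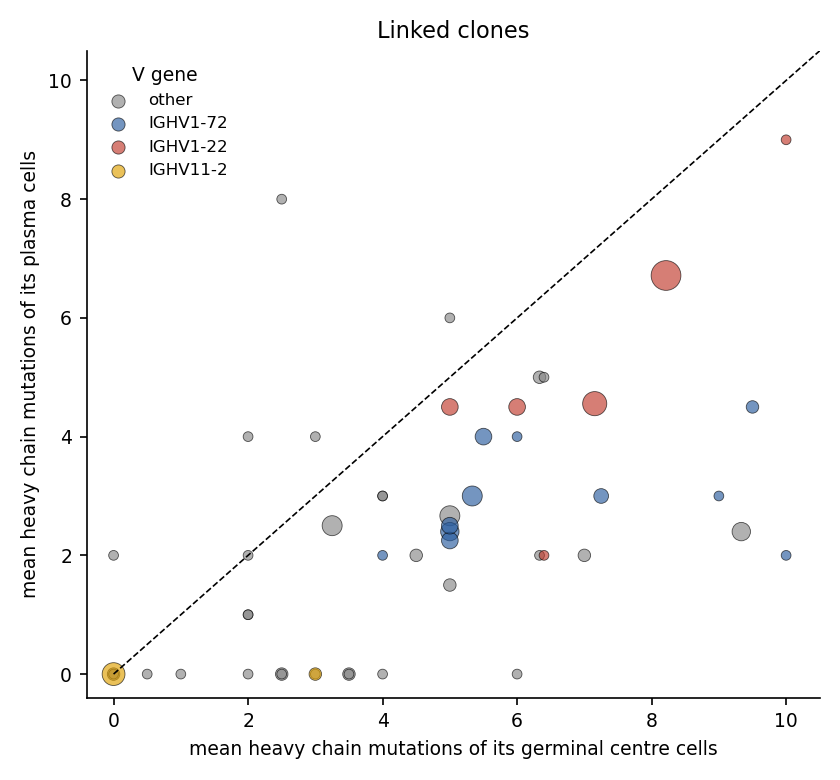
Each point is 1 of the 50 linked clones, with the mean heavy chain mutations of its germinal centre cells on the x axis and of its plasma cells on the y axis; point area grows with the number of plasma cells, and the dashed line marks equal values. Points of 41 clones lie under the line.

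The second largest linked clone, cl541 of C57BL/6F, had the same V segment. Its 9 plasma cells averaged 4.56 ± 2.55 mutations and its 13 germinal centre cells 7.15. The plasma cell in the middle of the clone by mutations in the stretch (5) and a germinal centre cell with 7, of which 6 fall in the stretch, are shown in the same window, whose germline letters are those of cl486.
cl541 linked plasma cell: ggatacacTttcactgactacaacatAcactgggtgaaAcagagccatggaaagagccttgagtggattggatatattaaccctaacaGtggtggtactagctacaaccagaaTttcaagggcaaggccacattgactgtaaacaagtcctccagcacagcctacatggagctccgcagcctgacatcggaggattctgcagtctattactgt
cl541 germinal centre cell: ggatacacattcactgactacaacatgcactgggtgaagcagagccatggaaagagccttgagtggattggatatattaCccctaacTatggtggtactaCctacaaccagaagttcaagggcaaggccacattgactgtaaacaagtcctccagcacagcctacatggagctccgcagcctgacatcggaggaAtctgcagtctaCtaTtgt
These 2 cells share no substitution in the window. In cl486, by comparison, plasma cells averaged 6.71 ± 1.82 and germinal centre cells 8.21. The gap was wider in cl39 of C57BL/6M, an IGHV1-53 clone whose 5 plasma cells averaged 2.4 and whose germinal centre cells averaged 9.33. In cl47 of C57BL/6M, an IGHV1-72 clone, 6 plasma cells averaged 3 and the germinal centre cells 5.33.

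IGHV1-22 and IGHV1-72 were each carried by more linked cells than any other segment. The linked cells held 25 V segments and the unlinked cells 71. IGHV1-22 was the segment of 33 linked cells in 6 clones and of 6 unlinked cells in 5 clones. By plate its share was 26.5% ± 19.4 in linked and 1.74% ± 2.74 in unlinked cells (0 to 80% over linked and 0 to 7.14% over unlinked plates), a difference of 24.8 points (14.9 to 35.1) that was positive in 15 of 16 plates (adjusted p = 0.000354, exact sign-flip permutation test). Clone cl486 of C57BL/6M held 14 of the 33 linked cells, on 9 plates, and cl541 of C57BL/6F held 9, on 5 plates. Plates thus shared clones and were not independent for this share. In the plasma cell gate alone the difference did not pass the test. A clone is recognised in part by its V segment, and the V shares of germinal centre cells were not set beside these. Linked IGHV1-22 cells averaged 5.52 ± 2.60 mutations and unlinked ones 2 ± 2. Segments seen in unlinked cells only included IGHV1-18 with 15 cells in 11 clones and IGHV1-80 with 14 cells in 9 clones; these were chosen after their counts were seen, and no test was made of them.

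IGHV1-72, the segment known for the NP response, was also more frequent among linked cells. It was carried by 32 linked cells in 11 clones and 30 unlinked cells in 21 clones. By plate the share was 26.0% ± 12.3 in linked cells (0 to 50%, median 25%) and 8.84% ± 5.80 in unlinked cells (0 to 16.7%, median 10.3%). The difference of 17.2 points (9.87 to 24.4) was positive in 14 of 16 plates (adjusted p = 0.00207, exact sign-flip permutation test), and was 9.56 points over 8 plates with close matches only (adjusted p = 0.314, exact permutation test). IGHV1-72 cells averaged 2.94 ± 1.56 mutations when linked and 1.93 ± 1.57 when unlinked, and no linked but 5 unlinked cells were unmutated. A lambda light chain was carried by 28 of the 32 linked and 23 of the 30 unlinked IGHV1-72 cells.

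A change at codon 33 of the heavy chain of this segment is known to raise affinity for NP. The authors' yes or no column named mut_33 was taken here as the call for that codon. It read yes in 19 of 32 linked and 14 of 30 unlinked IGHV1-72 cells. The segment lies at chr12:115757984-115758461 on the minus strand (mm10), and the CDR1 letters (IMGT positions 79 to 114) are shown from the deposited germline and from 1 linked and 1 unlinked cell with the call, capitals marking changes.
IGHV1-72 germline: ggctacaccttcaccagctactgg
linked cell, codon 33 changed: ggctacaccttcaccagGtactTg
unlinked cell, codon 33 changed: ggctacaccttcaccagctactTg
In the deposited sequences G113T was found in 22 linked and 14 unlinked IGHV1-72 cells, and the linked cell shown also had C108G, which was found in 6 linked cells. For linked cells the column (19) and the sequences (22) gave unlike numbers, and the rule behind the column was not given in the sources used here. Both classes held G113T, and cells of a clone are not independent observations of it.

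Lambda light chains were also more frequent among linked cells. The lambda share was 28.3% ± 13.5 in linked and 11.1% ± 8.86 in unlinked cells by plate, a difference of 17.2 points (9.07 to 25.3) that was positive in 14 of 16 plates (adjusted p = 0.00316, exact sign-flip permutation test). With IGHV1-22 and IGHV1-72 cells left out the difference was 6.05 points over 7 plates, and with close matches only it was 9.28 points over 8 plates; neither passed the test (adjusted p = 0.587 and 0.324, exact permutation tests). Neither sampleID passed alone, at 15.5 points on C57BL/6M plates (adjusted p = 0.0755, exact permutation test) and 19.4 points on C57BL/6F plates (adjusted p = 0.0906, same test). It was 16.7 points in the plasma cell gate alone (adjusted p = 0.0527, same test) and 10.9 points against unlinked clones of at least 2 plasma cells (adjusted p = 0.234, same test).

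**Figure D3:**
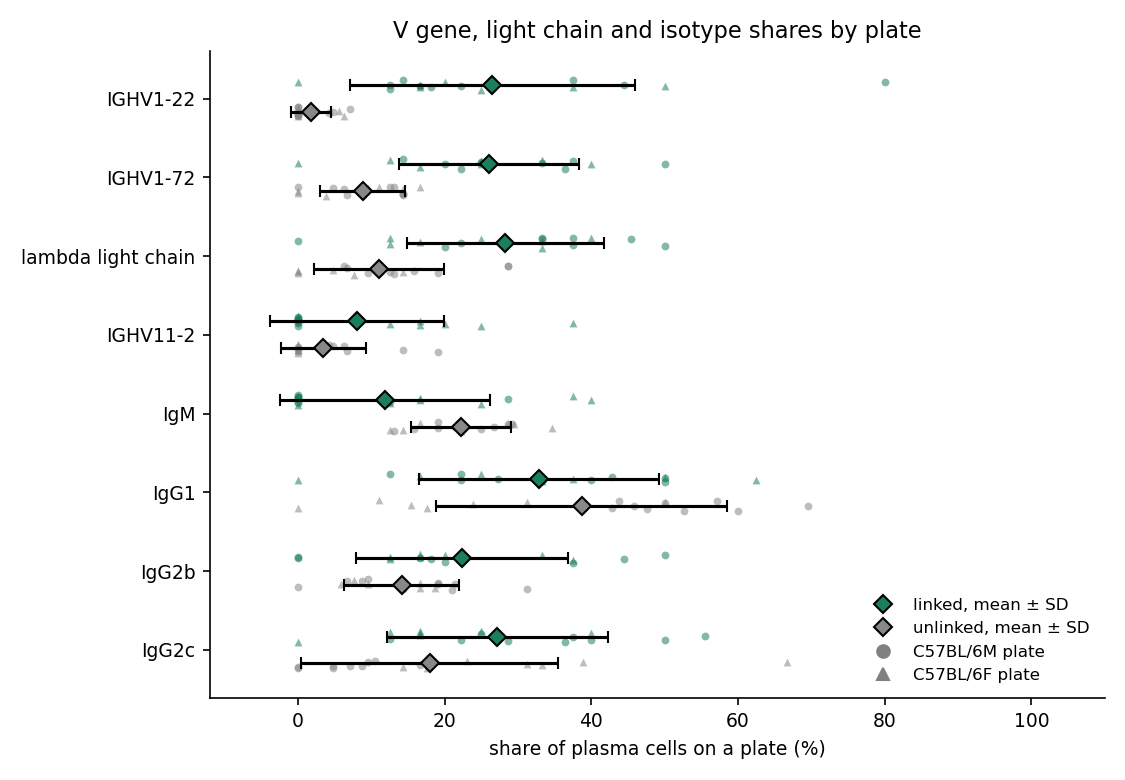
Share of linked (green) and unlinked (grey) plasma cells on each of the 16 tested plates that carried a V segment, a light chain type or an isotype; circles are C57BL/6M plates, triangles C57BL/6F plates, diamonds with bars the mean and SD of plates. The IGHV1-22, IGHV1-72 and lambda shares are higher in linked cells and the IgM share is lower.

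IGHV11-2, a segment known from B-1 cells, gave the unmutated end of both classes. It was carried by 10 linked cells in 2 clones and 11 unlinked cells in 3 clones, and all 21 were unmutated IgM cells with a kappa light chain. All 10 linked ones came from C57BL/6F. By plate the share was 8.02% ± 11.9 in linked and 3.45% ± 5.77 in unlinked cells, which did not pass the test (adjusted p = 0.492, exact sign-flip permutation test). Of the linked ones, 8 belonged to clone name cl93, whose link rested on 1 dark zone cell with the most light chain counts in lambda, while all 8 plasma cells were kappa. The junctions are shown because the same clone name was linked in C57BL/6F and unlinked in C57BL/6M, capitals marking bases that differ from the dark zone cell's junction.
cl93 dark zone cell and 4 linked plasma cells: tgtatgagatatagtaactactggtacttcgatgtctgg
3 linked plasma cells: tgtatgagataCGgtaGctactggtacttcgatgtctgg
1 linked plasma cell: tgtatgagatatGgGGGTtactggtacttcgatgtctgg
3 unlinked plasma cells: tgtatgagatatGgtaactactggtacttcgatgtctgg
2 unlinked plasma cells: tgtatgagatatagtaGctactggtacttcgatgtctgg
1 unlinked plasma cell: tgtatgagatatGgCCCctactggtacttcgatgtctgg
The linked junctions were 0, 3 and 5 bases off the dark zone cell's and the unlinked ones 1, 1 and 4 bases off. The distances of linked and unlinked junctions from the dark zone cell's thus overlapped.

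IgM was less frequent among linked cells. The share of cells whose most counted heavy chain constant gene was Ighm was 11.8% ± 14.3 in linked and 22.3% ± 6.81 in unlinked cells by plate. The difference was -10.4 points (-16.8 to -3.74), lower in linked cells on 13 plates and higher on 2 (adjusted p = 0.0230, exact sign-flip permutation test). Without the largest linked clone it was -9.40 points (adjusted p = 0.0584, exact permutation test), and in the plasma cell gate alone -8.55 points (adjusted p = 0.316, exact permutation test). The shares of IgG1 (32.8% in linked, 38.7% in unlinked), IgG2b (22.4% in linked, 14.1% in unlinked) and IgG2c (27.2% in linked, 18.0% in unlinked) did not pass the test, with adjusted p of 0.500, 0.280 and 0.442 (exact permutation tests).

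The IgG2c and IgG1 differences ran in opposite directions in the 2 sampleIDs. The linked minus unlinked difference in IgG2c share was 27.3 points on C57BL/6M plates and -13.9 points on C57BL/6F plates (difference 41.2, adjusted p = 0.00507, exact permutation of the sampleID over plates). For IgG1 it was -18.8 points on C57BL/6M and 10.8 points on C57BL/6F plates (adjusted p = 0.0243, same test), and for IgM -17.4 points on C57BL/6M and -1.42 points on C57BL/6F plates (adjusted p = 0.0243, same test). Few clones held many of the IgG2c cells. Of 26 linked ones of C57BL/6M, 13 were of clone cl486 and 6 of clone cl420. Of 49 unlinked ones of C57BL/6F, 10 were of clone cl261. Plates shared these clones, and the contrast between sampleIDs was not repeated without them. The mutation difference kept its direction but was 2.85 on C57BL/6M and 1.37 on C57BL/6F plates (adjusted p = 0.0243, same test). On the 7 C57BL/6F plates alone, where no exact test can go under p = 0.0156, the mutation difference had an adjusted p of 0.0906 (exact permutation test).

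The classes did not differ by the test in sort gate or cell cycle phase. The plasma cell gate held 74.7% ± 13.3 of linked and 73.5% ± 8.25 of unlinked cells by plate, the rest coming almost entirely from the pre-plasma gate (difference 1.23 points, -7.53 to 10.1, adjusted p = 0.928, exact sign-flip permutation test). The deposited phase was S or G2M in 23.5% ± 18.0 of linked and 23.2% ± 8.08 of unlinked cells (difference 0.297 points, -9.98 to 10.7, adjusted p = 0.987, same test). That mean joined unlike sampleIDs: the difference was -10.0 points on C57BL/6M and 13.6 points on C57BL/6F plates, -23.6 apart, which did not pass the test (adjusted p = 0.0503, exact permutation of the sampleID over plates). In the pre-plasma gate 16 of 34 linked and 45 of 92 unlinked cells were in S or G2M, and in the plasma cell gate 11 of 93 linked and 45 of 255 unlinked cells were. None of the 10 index-sort fluorescence channels passed the test; CD138, the plasma cell surface marker, read 3.45 in linked and 3.44 in unlinked cells, and CXCR4, a chemokine receptor, 3.04 in linked and 2.96 in unlinked cells, on the authors' inverse hyperbolic sine scale.

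The gates differed in mutations among linked cells. Those from the pre-plasma gate averaged 4.96 ± 2.00 heavy chain mutations and those from the plasma cell gate 2.48 ± 1.26, a difference of 2.48 that was positive on 14 of 16 plates (adjusted p = 0.00119 over the gate contrasts alone, exact sign-flip permutation test). Every plate with any linked cell in both gates was used, without the minimum of 5 cells, so these are not the 16 plates tested above. Only 34 linked cells came from the pre-plasma gate, so plate means rest on few cells. Unlinked cells averaged 0.775 ± 0.944 mutations (pre-plasma) and 0.814 ± 0.385 (plasma cell gate) over 19 plates, a difference of -0.0388 (adjusted p = 0.883, permutation test). The difference between these differences was 2.47 (adjusted p = 0.00119, exact permutation test). It did not pass without IGHV1-22: linked pre-plasma gate cells of other segments averaged 2.5 and linked plasma gate cells 1.95 over 12 plates, a difference of 0.547 (adjusted p = 0.916, exact permutation test), and the difference between differences was 0.383 (adjusted p = 0.916, same test).

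**Figure D4:**
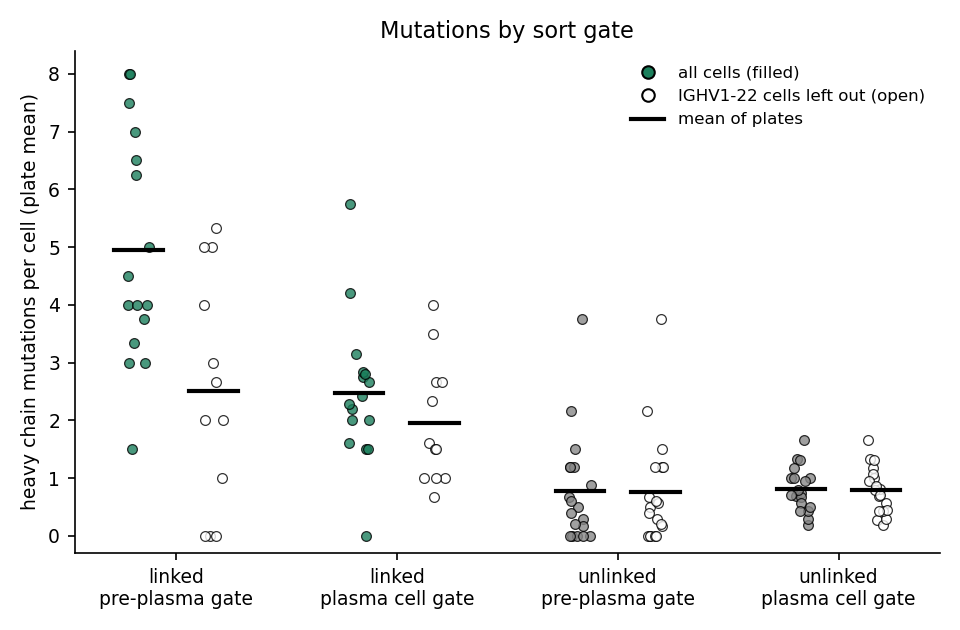
Mean heavy chain mutations per cell on each plate that held both gates, for linked and unlinked plasma cells, with all cells (filled points) and with IGHV1-22 cells left out (open points); bars are means of plates. The linked pre-plasma gate stands at a mean of 4.96 with all cells and at 2.5 without IGHV1-22.

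Larger clones were linked more often. Of 257 clones with 1 plasma cell, 27 (10.5%) were linked, against 9 of 39 (23.1%) with 2, 8 of 19 (42.1%) with 3 to 5 and 6 of 9 (66.7%) with 6 or more. The exceptions at the top were cl261 of C57BL/6F, cl435 of C57BL/6M and cl93 of C57BL/6M, with 10, 6 and 6 plasma cells and no germinal centre cell. Clone cl261 used IGHV6-3 with IGHJ4; its 10 cells lay on 5 plates, all were IgG2c from the plasma cell gate, they averaged 0.9 heavy chain mutations, and all 10 had the same junction.
cl261 junction: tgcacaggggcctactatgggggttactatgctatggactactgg
By contrast, the 14 plasma cells of the linked clone cl486 had 8 junctions and its 14 germinal centre cells 12. No germinal centre cell with a clone shared the name of cl261 under its letter.

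The number of genes called depended on the test. The counts of each class were pooled within a plate, and edgeR's quasi-likelihood test with the plate as block was run on 5138 genes, of which 10 passed an adjusted p of 0.05 (0.195%): 3 were higher in linked cells (0.0584%) and 7 lower (0.136%). DESeq2's test on the same pools called 668 genes, 21 higher and 647 lower, and edgeR without the filter on low counts called 81, 10 higher and 71 lower. With close matches only (8 plates), edgeR called 2 genes, both higher in linked cells and both among the 10. Of these 2, 1 was not an antibody gene. The median log2 fold change over the 5138 genes tested was -0.77, and single values are read against that shift. It was -0.15 when each plate gave equal numbers of cells per class. These equal numbers came from a random draw of cells that was not repeated, so values with equal cell numbers depend on that draw.

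Slpi, which encodes a secreted inhibitor of leukocyte serine proteases, was the gene with the smallest p. It stood at 8335 ± 3048 CPM in linked and 4716 ± 1639 in unlinked pools (SD, n = 16 plates, TMM-scaled). Linked pools ran from 4391 to 13767 with a median of 8383, and unlinked pools from 2546 to 8722 with a median of 4604, so the ranges overlapped while the linked pool was higher on 16 of 16 plates. The log2 fold change was 0.80 ± 0.09 (SE; edgeR, adjusted p = 1.28e-05), and 0.74 with equal cell numbers (edgeR, adjusted p = 0.0214). Slpi lies at chr2:164354070-164389095 on the minus strand (mm10). No gene exceeded 1024 counts in any member, and 18 linked and 9 unlinked cells had 1000 or more Slpi counts, so the highest cells may be understated; the effect of this ceiling was not tested.

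Slpi levels varied with isotype, mutation number, sort gate and phase as well as with class. The median cell held 83.5 CPM in linked and 73.1 in unlinked IgM cells, and 10898 in linked and 8956 in unlinked IgG1 cells. Of the 14 linked IgM cells, 10 carried IGHV11-2. The medians were further apart in IgG2b (11313 in linked and 1683 in unlinked cells) and IgG2c (10199 in linked and 3967 in unlinked cells). Among unmutated cells the medians were 2786 in linked and 2275 in unlinked cells, and with 1 or 2 mutations 11488 in linked and 6116 in unlinked cells. With 3 or 4 mutations they were 11069 in linked and 12190 in unlinked cells, and with 5 or more 9476 in linked and 9519 in unlinked cells. These medians describe cells, and no test was made of them. Over class-switched cells alone Slpi still passed the test, while it did not with IGHV1-22 and IGHV1-72 left out (log2 fold change 0.65, edgeR adjusted p = 0.712, 7 plates) or on the C57BL/6F plates alone (0.72, edgeR adjusted p = 0.43).

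**Figure D5:**
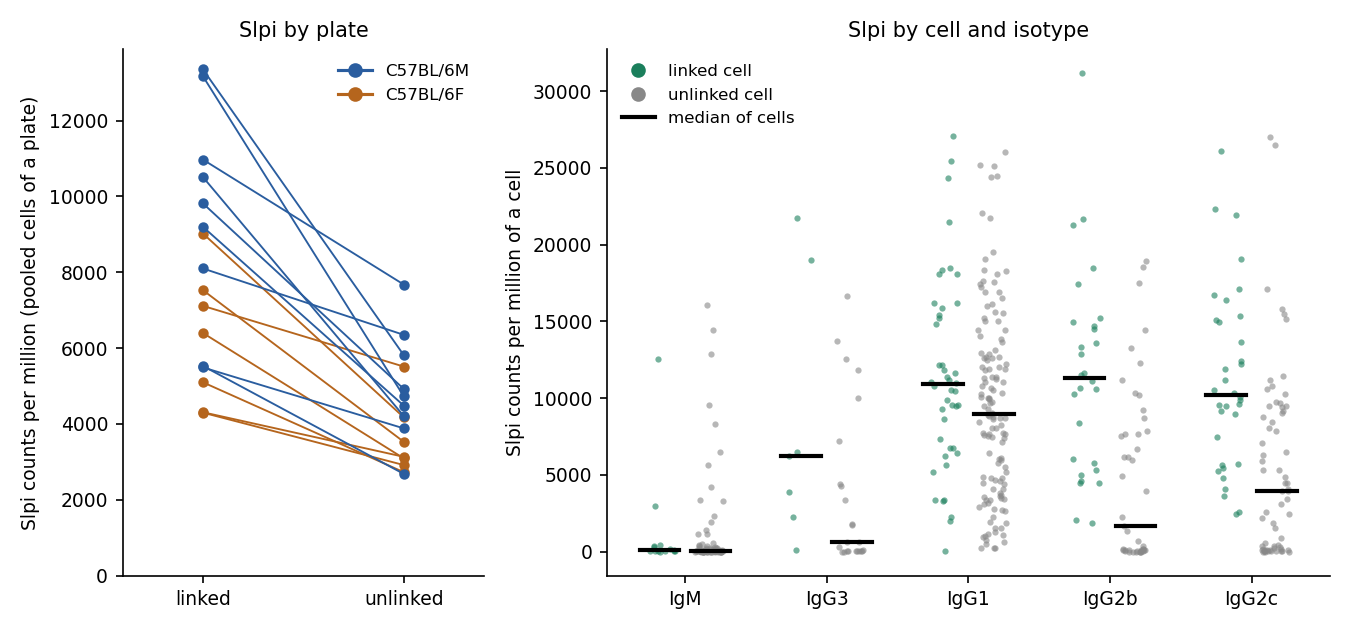
Left, Slpi CPM in the pooled linked and unlinked cells from each of the 16 plates, without TMM scaling; right, Slpi CPM in single cells by isotype, with medians as bars. Linked pools are higher on 16 of 16 plates, and IgM cells of both classes have medians under 100 CPM.

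The other genes higher in linked cells were antibody genes. Ighv1-22 stood at 3044 ± 2251 CPM in linked and 250 ± 351 in unlinked pools (log2 fold change 4.66 ± 0.63, edgeR adjusted p = 0.000275) and was higher on 15 of 16 plates. Without clone cl486 the log2 fold change was 2.16 and did not pass (edgeR adjusted p = 0.39). It was counted in 247 of 348 unlinked cells, of which 6 had it as their assembled V segment, so counts of this near-identical gene family may include reads of other segments. Iglc1, the lambda 1 constant region, stood at 4985 ± 2539 in linked and 2892 ± 871 in unlinked pools (log2 fold change 0.69 ± 0.12, edgeR adjusted p = 0.0127), and did not pass with equal cell numbers (0.81, edgeR adjusted p = 0.195). It was counted in all 127 linked cells, of which 36 were lambda by their most counted constant gene, and in all 348 unlinked cells, of which 43 were.

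The genes lower in linked cells were seen in few cells. Cd36, a scavenger receptor that takes up lipids, was counted in 6 of 127 linked and 74 of 348 unlinked cells, and it stood at 18.7 ± 57.8 CPM in linked and 154 ± 92.0 in unlinked pools (log2 fold change -7.61 ± 1.05, edgeR adjusted p = 0.000275). It was detected in the linked pools of 5 of 16 plates. The others were St3gal6, a sialyltransferase (4 linked and 48 unlinked cells), Smyd3, a lysine methyltransferase (2 linked, 24 unlinked), Cenpl, a kinetochore protein (5 linked, 37 unlinked), Polr1e, a subunit of RNA polymerase I (5 linked, 33 unlinked), Gpalpp1 (6 linked, 52 unlinked) and Zmym1 (7 linked, 34 unlinked), with log2 fold changes from -6.91 to -5.57. Linked pools held fewer cells than unlinked ones, and with equal cell numbers none of the 7 passed the filter on low counts, and no gene was called lower. With close matches only, no gene was called lower either.

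Genes of the plasma cell programme did not pass the test. Of 29 genes of the plasma cell identity list that were tested none was called, with a median log2 fold change of -0.37. Xbp1, a factor that drives secretory capacity, stood at 3556 ± 1052 CPM in linked and 3728 ± 612 in unlinked pools (-0.11 ± 0.10). Irf4, a plasma cell factor, stood at 118 ± 101 in linked and 226 ± 109 in unlinked pools (-1.42 ± 0.55, edgeR adjusted p = 0.341). Sdc1, which encodes CD138, stood at 410 in linked and 516 in unlinked pools (-0.34 ± 0.24). Jchain, which joins IgM and IgA into polymers, stood at 11360 ± 3591 in linked and 10016 ± 2640 in unlinked pools (0.17 ± 0.09).

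The remaining lists gave no call other than Iglc1 among the constant regions. Of 38 genes of protein folding and secretion tested 26 were above 0, with a median of 0.07; Herpud1, a factor of endoplasmic reticulum degradation, had the smallest p (0.44 ± 0.14, edgeR adjusted p = 0.244). All 24 genes of G2 and M phase were below 0 with a median of -1.69, and 22 of 23 S phase genes with a median of -1.44, against a median of -0.77 for all genes tested, of which 688 of 5138 were above 0. With equal cell numbers the medians were -0.87 for G2 and M phase and -0.33 for S phase, against -0.15 for all genes tested. Mki67, a proliferation marker, stood at 120 ± 95.8 CPM in linked and 184 ± 73.4 in unlinked pools (-1.19 ± 0.72, edgeR adjusted p = 0.506). Cd38, an ectoenzyme of B cells, did not pass, at -5.55 ± 1.23 (edgeR adjusted p = 0.0532), with counts in 6 linked and 55 unlinked cells. Klf2, a regulator of egress, was counted in no linked cell and in 13 unlinked cells, and Bcl6, which keeps the germinal centre state, in 0 linked and 2 unlinked cells; both were below the filter on low counts and not tested.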

How the data were processed

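Single cells were index-sorted into 96-well plates and processed by FB5P-seq, a 5' plate-based method with 22 preamplification cycles, per the labels' protocols. Per the submitters' processing notes, STAR 2.5.3a, HTSeq 0.9.1 and the mm10 genome were used. The authors deposited counts per gene and cell, and a table per cell with state, gate, phase, clone, V call, assembled heavy chain, mutation number, fluorescence (inverse hyperbolic sine, per the file headers) and the spike-in share as a fraction. How clones were called was not given in the sources used here.

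Members and gene lists were chosen with earlier results of these data known. Plates, not cells, were the samples; no label ties a plate to 1 deposited sample. Plates with at least 5 linked and 5 unlinked cells were tested by a two-sided sign-flip permutation of plate differences, exact for 16 plates (smallest p 3.05e-05) although resampling had been planned, and with 100000 resamples above that. P-values were adjusted by Benjamini-Hochberg over 29 results. Of these, the unmutated share, some V segments and isotypes and the spike-in share were added after seeing the data. The gate contrasts were added then too, but stood outside the 29. They were adjusted among themselves within each setting and used every plate with cells of the class in both gates. Isotype and light chain type were the constant gene with most counts. Summed counts were tested with edgeR 4.0.16 (TMM, filterByExpr, plate as block); DESeq2 1.42.0 was an alternative. The permutation test and the edgeR fit were tested on simulated data. Genes named were the called ones, a fixed panel and the 2 of smallest p per list. Coordinates are from GENCODE on mm10. For 1 fluorescence channel, plates that stand apart are not reported here.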

Additional observations from a re-analysis of the deposited data

Results flagged for a closer look

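Several plates stood apart from the other plates of their sampleID and class. A gap to the next plate past Dixon's 95% limit was found in 13 of 109 groups. Chance gives about 1 in 20 for independent groups with normal spread. Shares of few cells do not have that spread and some groups hold the same values, so the numbers cannot be compared directly. On C57BL/6M plate 18 the linked cells averaged 6.2 heavy chain mutations (next 3.89) and 80% of them used IGHV1-22 (next 44.4%). The same value of 6.2 was counted again in the comparison with clonemates, which uses the same linked cells. C57BL/6M plate 15 had the highest linked IgM share at 28.6% (next 12.5%) and the lowest linked PSGL1 at 1.77 (next 2.2). C57BL/6M plate 16 had the deepest cells, with a median of 162935 counts in linked (next 90731) and 143728 in unlinked cells (next 95823), and a spike-in share of 8.08% in unlinked cells (next 4.75%). The other plates were C57BL/6F plate 2 with a linked spike-in share of 4% (next 2.82%), C57BL/6F plate 3 with linked CD138 of 3.98 (next 3.3) and germinal centre clonemates at 2.33 mutations (next 4.46), C57BL/6F plate 5 with 88.2% unmutated unlinked cells (next 62.5%) and C57BL/6M plate 14 with unlinked GL7 of 1.02 (next 0.626). None of the 29 plate-level results changed its call when any 1 plate was left out; the gene and gate tests were not refitted this way.

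The class difference itself differed between the sampleIDs, C57BL/6M minus C57BL/6F, for heavy chain mutations by 1.48, IgM share by -16 points, IGHV11-2 share by -24.5 points (-6.13 on C57BL/6M and 18.3 on C57BL/6F plates), IgG1 share by -29.6 points and IgG2c share by 41.2 points, by exact permutation. The gate difference in mutations differed between linked and unlinked cells by 2.47.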

How the results depend on the processing

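Over 100 results, 1711 of 1825 alternative values kept their side of the threshold or, for numbers of genes called, stayed near the main number. Direction was not kept in all of these: 178 values did not pass on either side and had another sign. Leaving out each plate in turn, done for the 29 plate-level results and not for the gene and gate tests, changed no call: the mutation difference ran from 2.00 to 2.32, the clonemate difference from -2.30 to -2.11 and the IgM difference from -12.5 to -9.33. On C57BL/6F plates only, none of the 29 passed (lowest adjusted p 0.0906 by exact permutation, as 7 plates cannot go under an unadjusted 0.0156): heavy chain mutations 1.37, light chain mutations 0.864, IGHV1-72 13.9 points, lambda 19.4 points, IgM -1.42 points, unmutated heavy chain share -33.9 points, IGHV1-22 share 22.0 points and the clonemate difference -2.36. On C57BL/6M plates only, lambda (15.5 points) did not pass. With IGHV1-22 and IGHV1-72 left out (7 plates), heavy chain mutations 1.42, light chain mutations 1.23, lambda 6.05 points, IgM -6.63 points and unmutated heavy chain share -37.4 points did not pass. The same lower limit of 0.0156 held for these 7 plates, and the heavy chain mutations were at it. With unlinked clones of at least 2 plasma cells only, IGHV1-72 13.2, lambda 10.9 and IgM -7.95 points did not pass. In the plasma cell gate only, lambda 16.7, IgM -8.55 and IGHV1-22 share 16.9 points did not pass. Without the largest linked clone IgM was -9.40 points, and with close matches only IGHV1-72 was 9.56 and lambda 9.28 points, none passing.

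The number of genes called moved more. Against 10 in the paired fit, a fit without the plate block called 17 (6 higher, 11 lower), DESeq2's test 668 (21 higher, 647 lower), no filter on low counts 81 (10 higher, 71 lower) and pools of at least 3 cells 45. Fewer were called on C57BL/6F plates (2), in the plasma cell gate (4), without the largest clone (6), with cells thinned to 10000 counts (3), in G1 cells (3), with close matches (2) and with equal cell numbers (2). The count was 0 by edgeR with unlinked clones of at least 2 plasma cells (68 at an unadjusted p under 0.05) or with IGHV1-22 and IGHV1-72 left out (186), where Ighv1-22 itself turned to -0.57 by construction. Slpi lost its call in these and on C57BL/6F plates. Requiring 10 cells a pool left 1 plate and gave no value.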
